A study of Mus musculus with 96 samples.

Results

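Abcg5 and Abcg8 encode the paired sterol transporters of the liver and gut, and they are described here in the livers of 48 male F1 mice. They are 2 of the 38924 genes in the tables and were found by their symbols. Both lie head to head on mouse chromosome 17. For each gene the counts assigned to the NOD allele and to the PWK allele of a mouse were added for the total level, and the PWK part of that sum gave the allele share.

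The mice came from both directions of a cross between NOD/ShiLtJ and PWK/PhJ, inbred strains. They are named NODxPWK and PWKxNOD, and the strain written first is taken here as the dam. Autosomes are therefore the same in both crosses, whereas the X chromosome and mitochondria come from the dam and the Y chromosome from the sire. Within each cross the mice ate a diet with 0.009 g/kg cholecalciferol (normal vitamin D) or a matched diet with 0.050 g/kg (high vitamin D). Livers were taken at a younger and at an older age within each cross and diet, so that 6 mice fell into each of 8 groups. Younger mice carry 8 as their age label and older mice 24 or 25, without a unit, whereas the protocol names 15 and 24 weeks. The groups are therefore called younger and older. No mouse carried an engineered allele, and every group shared the same pair of parental strains. Liver pieces went into polyA-selected RNA libraries that do not keep the strand.

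ABCG5 and ABCG8 are subunits that work only as a pair: the proteins join in the endoplasmic reticulum, move to the canalicular membrane of the hepatocyte and pump cholesterol and plant sterols into bile. In the intestine the same pair returns absorbed plant sterols to the lumen, and loss of either gene causes sitosterolaemia in people. The liver X receptors, nuclear receptors that sense oxysterols, raise transcription of both genes, and HNF4A and GATA factors have been placed at the short promoter region that the genes share.

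By the GENCODE M21 annotation of GRCm38, the build named in the submitters' processing notes, Abcg5 (ENSMUSG00000040505) lies on the minus strand at chr17:84658234-84683011 and Abcg8 (ENSMUSG00000024254) on the plus strand at chr17:84676302-84700333. The main coding transcripts start 110 bases apart and run away from each other. The annotation also holds a longer Abcg8 transcript whose start lies inside Abcg5. For this reason the gene bodies overlap, and their exons share 82 bases in which reads without strand cannot be told apart. The only sequence that separates the main start sites is printed here because any element in it lies upstream of both of these starts. It lies within the span of the longer Abcg8 transcript. It is the interval chr17:84683012-84683120 of GRCm38.p6, plus strand, 109 bases, taken from the RefSeq promoter windows, with motif matches in capitals. This is the sequence of the reference build, and whether the NOD or PWK allele differs from it was not tested.
Abcg5 to Abcg8 interval: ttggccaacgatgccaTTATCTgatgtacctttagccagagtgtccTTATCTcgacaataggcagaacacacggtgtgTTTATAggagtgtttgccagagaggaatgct

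The capitals mark, from left to right, a pair of GATA motifs (AGATAA, read on the minus strand) and 1 TATA motif (TATAAA, also on the minus strand). The nearest bases of the GATA matches lie 17 and 47 bases from the Abcg5 start. The TATA match ends 26 bases before the Abcg8 start, on the strand opposite to Abcg8 transcription, and its nearest base lies 79 bases upstream of the Abcg5 start. Over the whole window of 300 bases (250 before a start to 50 after it), either gene held 3 GATA matches, against 11.2% of 32851 mouse promoter windows with at least 1. The TATA motif was in 13.6% of all windows. CCAAT was found 1 time in the Abcg5 window and 2 times in the Abcg8 window, outside the interval, and 37.4% of windows held it. The nuclear receptor motif AGGTCA (16.3% of windows), its extended form CAAGGTC (3.96%), the forkhead motif TGTTTAC (3.65%) and the GC box GGGCGG (35.7%) had no match on either strand of either window. Abcg8 had 2 RefSeq windows, and its matches were counted only in the one at the main start. The windows of the genes overlap by 209 bases, so a match within the overlap was counted for both, and CAAGGTC and AGGTCA can share letters.

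Counts per mouse summed to between 2025857 and 7480778 (median 5273518), and the 6 mice of 1 barcode were the shallowest. Abcg5 had 158 to 1002 counts per mouse and Abcg8 194 to 1210. The 12 hepatocyte markers summed to 61482 to 125338 CPM (counts per 1000000 counts of the mouse) and were abundant in every mouse. Markers of intestinal epithelium, the other main site of Abcg5 and Abcg8, summed to 42.04 to 91.73 CPM, and 6 of the 8, among them Vil1, Cdx1, Cdx2 and Sis, averaged under 0.1 CPM. The libraries ran as 6 lane sets that each held 1 mouse of every group. Transcripts of exocrine pancreas stood out in 13 mice of 7 groups, with 0 to 3 mice in a group. In these mice the mean log2 marker level lay more than 3 scaled median absolute deviations above the median. They are called the mice with pancreas transcripts below, although other mice had low counts of these markers too. The 8 pancreas markers summed to at most 204.9 CPM in NODxPWK (median 0.559) and at most 1611 CPM in PWKxNOD (median 0.702), and 5 of the 8 were called higher in PWKxNOD in edgeR (median log2 difference 3.95). Of the older mice 7 carried the age label 25, and all of them ate the normal diet (5 NODxPWK and 2 PWKxNOD).

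Both genes were expressed at moderate level in every mouse. Abcg5 averaged 90.6 ± 18.6 CPM (SD, n = 48) and ranged from 51.4 to 135.8 CPM. Abcg8 averaged 117.3 ± 18.9 CPM (SD, n = 48) and ranged from 67.4 to 163.9 CPM. Abcg8 has the longer transcript, 3667 against 2351 bases for the longest coding transcript of each gene. Per kilobase the order turned around: Abcg5 stood at 38.5 ± 7.89 CPM per kb and Abcg8 at 31.98 ± 5.16 CPM per kb (SD, n = 48).

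The clearest difference between groups was by cross. Abcg5 was lower in NODxPWK livers, where the 24 mice had 51.4 CPM at the lowest, 77.1 at the median and 107.7 at the highest. In PWKxNOD livers the corresponding values were 68.7, 97.1 and 135.8 CPM. For Abcg8 the NODxPWK mice ran from 67.4 CPM through a median of 108.5 to 145.0 CPM. The PWKxNOD mice ran from 98.5 CPM through 122.8 to 163.9 CPM. The ranges of the crosses overlapped for both genes.

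In the edgeR quasi-likelihood fit over all genes, adjusted with Benjamini-Hochberg, Abcg5 was higher in PWKxNOD by 0.34 ± 0.07 on the log2 scale (SE; 1.26-fold, adjusted p = 0.000271) and Abcg8 by 0.22 ± 0.06 (1.17-fold, adjusted p = 0.00478). Both members passed the threshold of 0.05, against 10.7% of the 11979 genes tested, and 5.36% of genes passed in the same direction. Less RNA per hepatocyte and fewer hepatocytes per piece of liver cannot be told apart in such samples. The hepatocyte marker sum had a median of 89171 CPM in PWKxNOD and 96860 CPM in NODxPWK, and most of it was Alb, the albumin gene, which was itself called lower in PWKxNOD (-0.29 ± 0.05). Pck1 was called higher (0.69 ± 0.18), and the other 10 markers were not called. The mean log2 level of the 12 markers was 10.96 ± 0.219 in PWKxNOD and 11 ± 0.216 in NODxPWK (SD, n = 24 each). Without the 13 mice with pancreas transcripts the cross difference was 0.35 ± 0.08 for Abcg5 and 0.26 ± 0.07 for Abcg8 (adjusted p = 0.00473 and 0.0129).

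The log2 difference between the genes within a mouse also depended on the cross. It was -0.32 ± 0.15 in PWKxNOD and -0.44 ± 0.12 in NODxPWK (SD, n = 24 each), a change of 0.12 (two-sided permutation test within diet and age, p = 0.00636, adjusted p = 0.0254 over 4 comparisons). In this test Abcg5 thus moved more between the crosses than Abcg8. Age changed this difference by 0.03 (adjusted p = 0.878), diet by -0.01 (adjusted p = 0.878) and age by diet by 0.02 (adjusted p = 0.878).

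A score of clock gene expression moved with the cross. To obtain it, the mean log2 CPM of Arntl, Clock, Npas2 and Nfil3 was subtracted from that of Per2, Per3, Dbp, Tef, Nr1d2 and Ciart, which peak at an opposite time of day. It averaged 0.139 ± 1.503 in NODxPWK (range -2.82 to 2.55) and 2.70 ± 0.97 in PWKxNOD (range 0.87 to 4.18; SD, n = 24 each). With this score as a covariate the cross difference was 0.07 ± 0.12 for Abcg5 and 0.09 ± 0.10 for Abcg8 (SE, edgeR adjusted p = 1 for each), and its standard error was larger. Cross and clock score cannot be told apart for these genes. The larger move of Abcg5 than of Abcg8 between the crosses was not seen in these values, and it was not tested with the score. Without the mice of lane set 4, Abcg8 by cross fell to 0.19 (adjusted p = 0.0589).

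**Figure D1:**
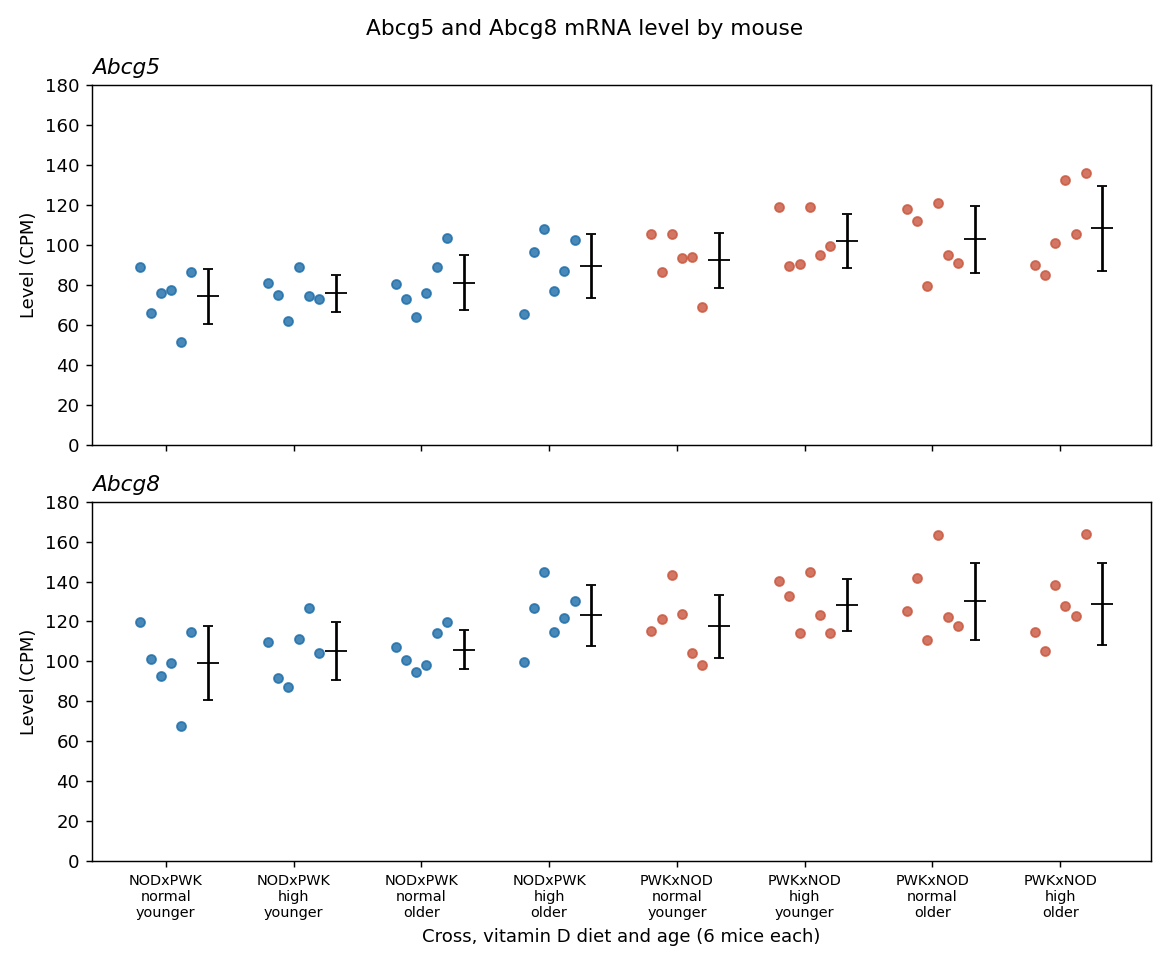
Level of Abcg5 (upper panel) and Abcg8 (lower panel) in CPM for each of the 48 mice by group, with the group mean and SD in black beside the 6 points. The PWKxNOD groups (red) lie higher than the NODxPWK groups (blue) for Abcg5, with group means of 92.2 to 108.2 against 74.2 to 89.2 CPM, and the points of neighbouring groups overlap.

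Ordered by mean, the 8 groups formed a gradual series for Abcg5, with every NODxPWK group below every PWKxNOD group. The lowest was NODxPWK on normal diet, younger, at 51.4, 76.5 and 88.9 CPM (lowest, median and highest of 6 mice). Younger NODxPWK mice on high vitamin D had 61.8, 74.5 and 89.0 CPM. Older NODxPWK mice had 64.0, 78.2 and 103.5 CPM on the normal diet. These 3 groups overlapped almost fully. Older NODxPWK mice on high vitamin D reached 65.3, 91.6 and 107.7 CPM. The younger PWKxNOD mice had 68.7, 93.7 and 105.5 CPM on the normal diet. On high vitamin D they had 89.3, 97.0 and 118.8 CPM. The lowest of these 6 mice on high vitamin D, at 89.28 CPM, lay only just above the highest younger NODxPWK mouse of either diet, at 89.05 CPM. Older PWKxNOD mice had 79.2, 103.5 and 121.0 CPM on the normal diet. The highest group was older PWKxNOD on high vitamin D, at 84.7, 103.1 and 135.8 CPM.

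Abcg8 followed a similar order with 1 exchange between the crosses. Younger NODxPWK mice had 67.4, 100.3 and 119.9 CPM on the normal diet. On high vitamin D they had 87.0, 107.0 and 126.8 CPM. Older NODxPWK mice had 94.7, 104.1 and 119.9 CPM on the normal diet, the narrowest spread of any group (SD 9.73 CPM). Older NODxPWK mice on high vitamin D, at 99.8, 124.2 and 145.0 CPM, had a higher mean (123.1 CPM) than younger PWKxNOD mice on the normal diet (117.6 CPM, from 98.5 to 143.3 CPM). The other 3 PWKxNOD groups had means of 128.3 to 130.2 CPM and together spanned 105.3 to 163.9 CPM.

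Neighbouring groups overlapped in both orders. Two-sided exact permutation tests of 6 against 6 mice gave adjusted p = 0.82 to 0.972 for the neighbours, over 16 comparisons. These also held the lowest against the highest group of each gene, with adjusted p = 0.104 in the same test for each gene. The groups were placed in order by the same means that were then compared. These p-values are therefore not those of comparisons chosen independently of the levels.

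Neither gene passed the test for age or diet. Averaged over crosses and diets, Abcg5 in older against younger mice was at 0.15 ± 0.07 on the log2 scale (SE, edgeR adjusted p = 0.144) and Abcg8 at 0.12 ± 0.06 (adjusted p = 0.184). The 95% intervals ran from 0.02 to 0.28 and from 0.01 to 0.23. Neither member was called for age, against 12% of all genes (1439 of 11979). Without the 7 mice labelled 25 the age values were 0.04 ± 0.09 and 0.07 ± 0.08. With the clock score as a covariate Abcg5 by age was 0.28 ± 0.08 (adjusted p = 0.0184), and without lane set 1 it was 0.21 (adjusted p = 0.0483). The clock score itself differed with age, mainly in NODxPWK. There it averaged 1.185 (normal diet) and 1.144 (high) in younger mice, and -1.451 and -0.321 in older mice. In PWKxNOD these means were 2.448 and 3.365, and 1.673 and 3.311. The parts of age and score in the value of 0.28 were not tested.

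High against normal vitamin D gave 0.10 ± 0.07 for Abcg5 (adjusted p = 0.651; 95% interval -0.03 to 0.23) and 0.10 ± 0.06 for Abcg8 (adjusted p = 0.511; -0.01 to 0.22), with 0.342% of genes called. In older mice alone the diet values were 0.11 ± 0.09 and 0.10 ± 0.08 (adjusted p = 0.602 and 0.562), with 3.71% of genes called. In younger mice they were 0.09 ± 0.09 and 0.11 ± 0.08. The interaction of age and diet was 0.02 ± 0.13 for Abcg5 and -0.01 ± 0.11 for Abcg8 (adjusted p = 0.976 and 1), with 0.618% of genes called. The data bound it loosely, with 95% intervals of -0.24 to 0.29 and -0.23 to 0.22.

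Mouse by mouse, the genes rose and fell together. After the group means were removed, log2 levels of Abcg5 and Abcg8 had Pearson r = 0.812 and Spearman rho = 0.781 over 48 mice (two-sided permutation within groups, p = 1e-05 for each, the smallest the 100000 resamples can give). Without the 2 mice farthest from the median of Abcg5 r was 0.768. It was 0.856 in NODxPWK and 0.764 in PWKxNOD mice, and from 0.587 to 0.976 within the single groups. Before the group means were removed r was 0.871.

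The relation was about as strong with the clock score regressed out (r = 0.808), with the hepatocyte marker score regressed out (r = 0.789) and without the 13 mice with pancreas transcripts (r = 0.840). These 3 settings were chosen after the data were seen. Both values of a mouse come from the same library and share its scaling. Of the stretches of 50 bases in their annotated transcripts, 34 occur in both genes on either strand (1.24% of those of Abcg5, 0.897% of those of Abcg8), and none occurs in any other gene. How reads from such stretches were divided between the genes was not tested.

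**Figure D2:**
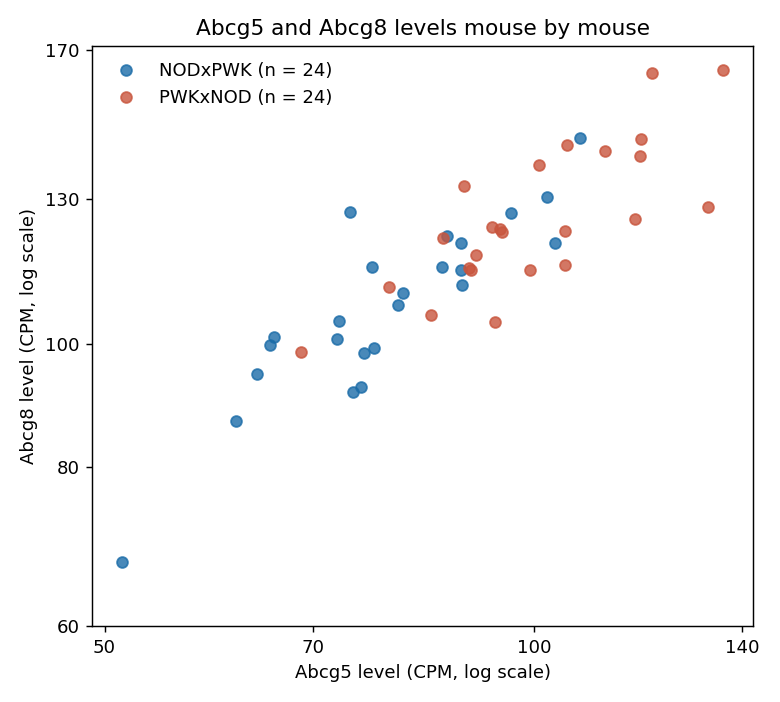
Abcg5 level against Abcg8 level in CPM, log scales, 1 point per mouse, coloured by cross (24 mice each). The points form a single band in both crosses (r = 0.812 after group means are removed), with the PWKxNOD mice toward the upper right.

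Among 11028 other genes with a mean of at least 2 CPM, Abcg8 had the highest correlation with Abcg5 over the 48 mice, and Abcg5 the highest with Abcg8. The next most alike for Abcg5 were Cyp2a5 (r = 0.716), a cytochrome P450 gene, Etnk2 (0.680), an ethanolamine kinase gene, Slc7a2 (0.652), a cationic amino acid transporter gene, and Adarb1 (0.644), an RNA editing enzyme gene. For Abcg8 they were Etnk2 (r = 0.618), Rbp4 (0.598), the plasma retinol carrier gene, Hpd (0.584), a gene of tyrosine breakdown, and Fn3k (0.582), a fructosamine kinase gene. As a description of genomic setting, 671 pairs of coding genes with both members at this level start within 1000 bases of each other on opposite strands and run apart. Their median r was 0.163, and the Abcg5 and Abcg8 pair ranked 5th.

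The alleles of the genes were unequal, and far more so for Abcg5. The PWK share of Abcg5 counts averaged 24.5% ± 3.57 (SD, n = 48) and ranged from 17.9% to 33.3%. For Abcg8 it averaged 43.9% ± 4.66 and ranged from 32.3% to 54.3%. The counts behind a share limit its precision. In the mouse with the fewest Abcg5 counts (158) the share was 22.9% with a 95% Wilson interval of 16.9% to 29.9%. In the mouse with the most (1002) it was 22.97% with 20.5% to 25.7%. For Abcg8 the interval was 44.05% to 57.98% at 194 counts and 41.2% to 46.8% at 1210 counts. These intervals treat every count as a read of known allele, although counts of reads without a strain difference were divided by estimation. They are therefore at best a lower bound on the counting error, and cover no other error.

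The PWK over NOD log2 ratio in the edgeR quasi-likelihood fit over 9362 autosomal genes was -1.64 ± 0.04 for Abcg5 (SE, 3.11-fold lower from PWK, adjusted p = 3.04e-33) and -0.35 ± 0.04 for Abcg8 (1.28-fold lower, adjusted p = 3.58e-10). Both members passed, as did 43.6% of genes in either direction and 22.8% with PWK lower. The ratio of Abcg5 was at the low end: 227 of the 9362 genes, itself included, had a ratio as low (2.42%). With each allele column scaled to its own total, both ratios moved up by 0.16, to -1.47 and -0.19, and both were still called.

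Within the same mouse the PWK share of Abcg5 was lower than that of Abcg8 in 48 of 48 mice, with a mean difference of -19.4 percentage points (SD 4.74, range -30.6 to -3.94). A two-sided permutation test by sign flips gave p = 1e-05, the smallest that 100000 resamples can give. Among 539 divergent pairs with both allele ratios, the median difference between partners was 0.303 on the log2 scale. The difference of 1.28 between Abcg5 and Abcg8 ranked 27th.

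**Figure D3:**
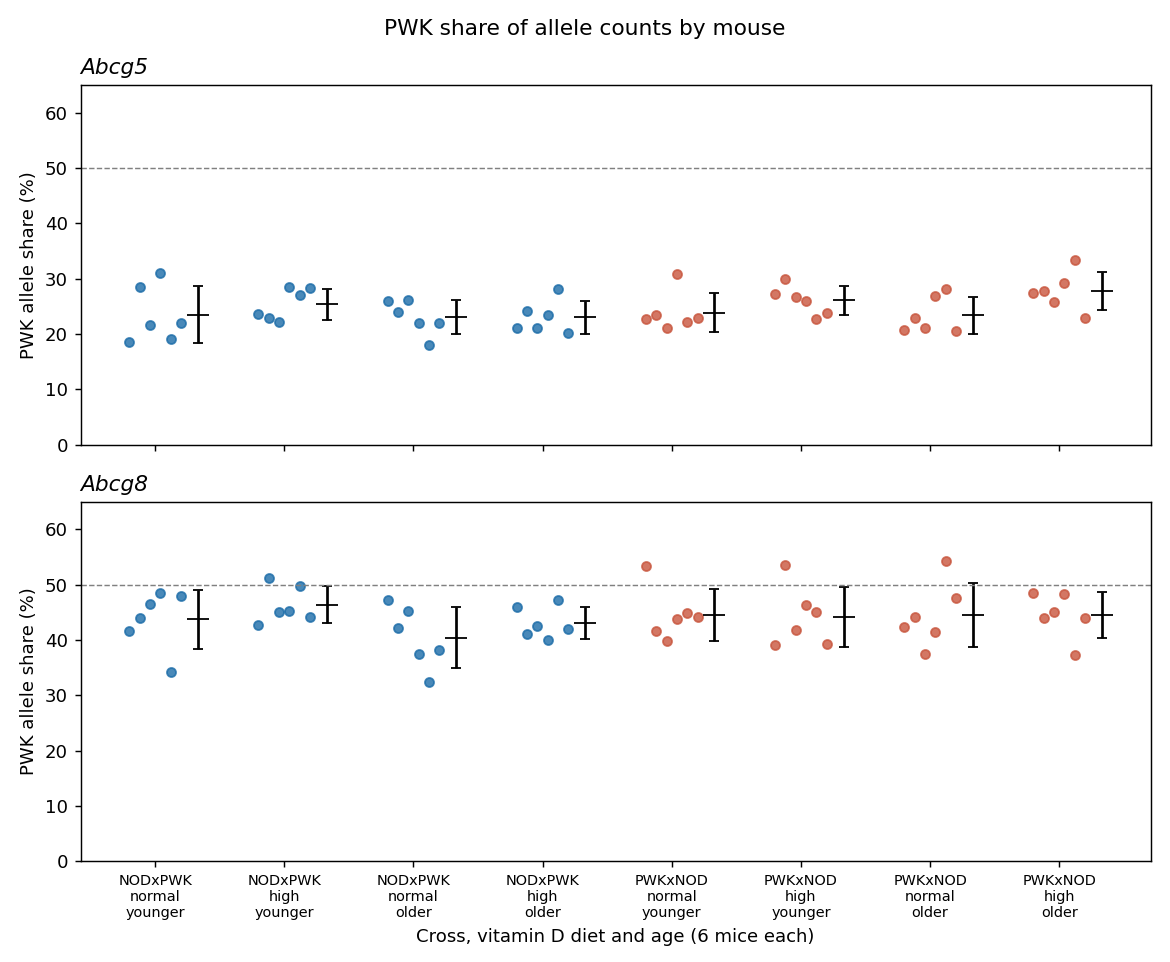
PWK share of the allele counts in percent for Abcg5 (upper panel) and Abcg8 (lower panel), 1 point per mouse, with the group mean and SD in black and a dashed line at equal shares. The 48 Abcg5 points lie between 17.9% and 33.3%, below the line in every group, while the Abcg8 points lie between 32.3% and 54.3%.

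Per transcript length the alleles of the genes crossed over. The NOD allele of Abcg5 stood at 29.1 ± 6.00 CPM per kb and its PWK allele at 9.47 ± 2.49 (SD, n = 48). The NOD allele of Abcg8 stood at 17.9 ± 3.26 CPM per kb and its PWK allele at 14.1 ± 2.68. On NOD chromosomes the level of Abcg5 was thus above that of Abcg8, and on PWK chromosomes it was below. A read without a strain difference carries no allele label and its count was divided by estimation, so a shared error of that step would touch all mice alike. Its part in the shares was not tested.

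**Figure D4:**
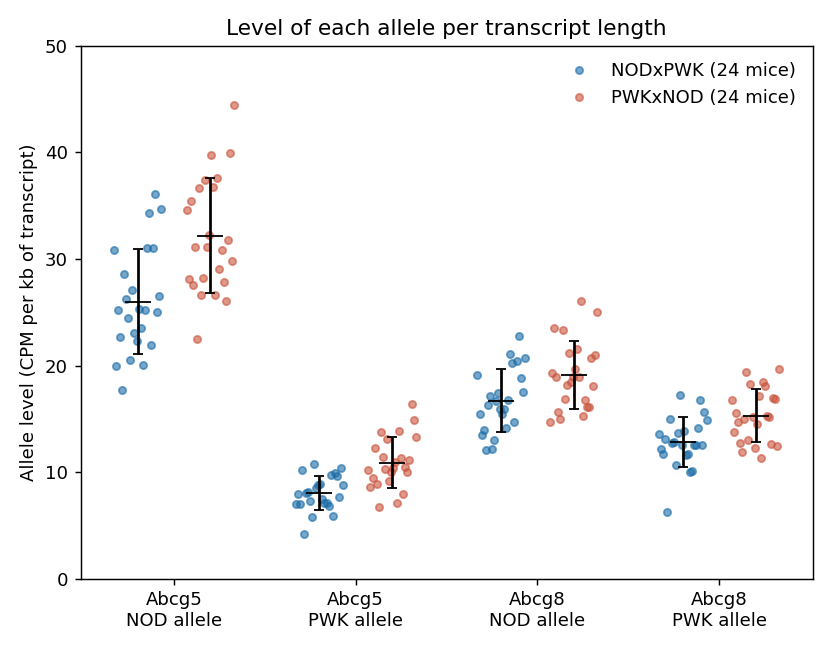
Level of the NOD and PWK allele of each gene in CPM per kb of transcript, 1 point per mouse, by cross, with mean and SD in black. The Abcg5 alleles lie far apart (29.1 against 9.47 CPM per kb over all mice) and the Abcg8 alleles close together (17.9 against 14.1), and in PWKxNOD mice the points of each allele sit slightly higher.

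Group means of the PWK share ran from 23.01% to 27.7% for Abcg5 and from 40.4% to 46.3% for Abcg8. No difference by parent of origin was detectable at this depth: the maternal over paternal log2 ratio was 0.06 ± 0.04 for Abcg5 and 0.03 ± 0.04 for Abcg8 (SE, edgeR adjusted p = 1 for each), with 0.267% of genes called. Both alleles of both genes had a higher mean in PWKxNOD livers. The NOD allele of Abcg5 averaged 61.1 CPM in NODxPWK and 75.6 CPM in PWKxNOD, and its PWK allele 18.9 and 25.6 CPM. For Abcg8 the NOD allele averaged 61.3 and 70.1 CPM and the PWK allele 47.03 and 56.05 CPM.

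Age shifted the PWK over NOD log2 ratio by -0.04 ± 0.08 in Abcg5 and -0.09 ± 0.08 in Abcg8 (adjusted p = 1 for each, 0.705% of genes called). Diet shifted it by 0.17 ± 0.08 in Abcg5 (unadjusted p = 0.0297, adjusted p = 1) and by 0.07 ± 0.08 in Abcg8 (adjusted p = 1), with 0.0214% of genes called in the edgeR fit. Older PWKxNOD mice on high vitamin D had the highest Abcg5 shares, at 22.97%, 27.53% and 33.32% (lowest, median and highest of 6 mice). On the normal diet these were 20.48%, 21.99% and 28.12%. The ranges overlapped. Older NODxPWK mice on high vitamin D had the lowest mean Abcg5 share of all groups, close to that on the normal diet. In younger mice of both crosses the mean share was higher on high vitamin D.

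Levels of single alleles also covaried between the genes. After group means were removed, the NOD levels of Abcg5 and Abcg8 had r = 0.703 and their PWK levels r = 0.682, while the NOD level of one with the PWK level of the other had r = 0.529 and 0.482 (n = 48; permutation within groups, adjusted p = 9e-05, 9e-05, 0.00045 and 0.00209 over 6 relations). Within each cross all 4 lay between 0.469 and 0.798. The same-strain pairs were thus the higher ones, and the difference between these correlations was not tested. The remaining relations of the 6 were those of the NOD with the PWK level of a single gene. They had r = 0.563 for Abcg5 and 0.367 for Abcg8 (adjusted p = 0.00036 and 0.0181 in the same permutation test). The PWK shares of the genes had r = 0.340 (p = 0.0339) and rho = 0.296 (p = 0.0598) over 48 mice. This was 0.536 in NODxPWK and 0.152 in PWKxNOD mice, and 0.338 without the 2 mice farthest from the median.

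Next to the pair on chromosome 17, 5 coding genes lie within 300 kb. Lrpprc, which encodes a mitochondrial RNA binding protein, had 109.6 ± 11.3 CPM (SD, n = 48) and a PWK share of 34.3% ± 4.52. Its PWK over NOD log2 ratio was -0.95 ± 0.04 (SE, edgeR adjusted p = 1.18e-22). Ppm1b, a protein phosphatase gene, had 103.9 ± 13.6 CPM and a share of 47.1% ± 8.57. Its ratio was -0.17 ± 0.07 and was called in the same fit (adjusted p = 0.0432). Thada had 11.4 ± 1.58 CPM, a share of 51.8% ± 13.9 and a ratio of 0.104 ± 0.125 (adjusted p = 0.571). Plekhh2 and Dync2li1 were under 1 CPM on average and were not tested. By cross, Lrpprc was at 0.11 ± 0.04 (adjusted p = 0.0504), Ppm1b was lower in PWKxNOD by -0.19 ± 0.05 (adjusted p = 0.00367) and Thada was at 0.08 ± 0.06 (adjusted p = 0.499). The correlations of Lrpprc, Ppm1b and Thada with Abcg5 or Abcg8 lay between -0.24 and 0.03. Covariation across mice as strong as that of the pair was therefore not seen with the 3 tested neighbours.

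Neither the mean of LXR target genes nor of cholesterol synthesis genes tracked the pair closely over mice. Over 12 relations of the genes with scores, each computed on deviations from group means with permutation within groups (n = 48), no adjusted p was under 0.05. The highest were Abcg5 with the hepatocyte marker score (r = 0.402, rho = 0.383, adjusted p = 0.0742) and with the clock score (r = 0.395, rho = 0.420, adjusted p = 0.0742). For Abcg8 these were r = 0.316 (adjusted p = 0.101) and r = 0.224 (adjusted p = 0.195). The LXR target score gave r = 0.259 with Abcg5 and 0.291 with Abcg8 (adjusted p = 0.195 and 0.190), and the cholesterol synthesis score r = -0.240 and -0.162 (adjusted p = 0.195 and 0.384). Red cell and pancreas scores gave r between 0.059 and 0.276.

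**Figure D5:**
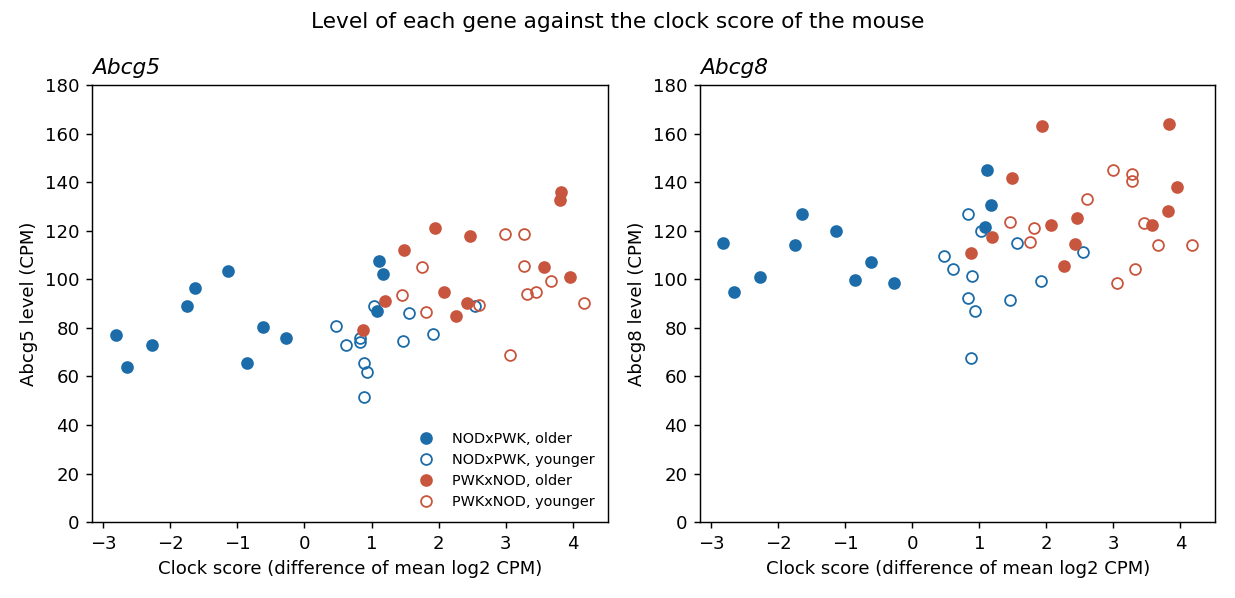
Level of Abcg5 (left) and Abcg8 (right) in CPM against the clock score of the same mouse, filled points for older and open points for younger mice, coloured by cross. The PWKxNOD mice lie to the right (scores 0.87 to 4.18) of most NODxPWK mice (-2.82 to 2.55), and within crosses the r of Abcg5 with the score was 0.448 in NODxPWK and 0.329 in PWKxNOD after group means were removed.

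Genes of cholesterol synthesis and uptake differed by cross in the direction opposite to the pair. Of 26 genes of cholesterol synthesis and uptake 13 were lower in PWKxNOD and 0 higher in the edgeR fit, with a median of -0.39 on the log2 scale, against -0.00 over all genes and 10.7% of genes called. Hmgcs1, an early enzyme gene of the mevalonate pathway, was at -0.88 ± 0.18, Fdps at -0.71 ± 0.21, Srebf2, the main activator of the pathway, at -0.36 ± 0.10, and Insig2, which encodes a retention factor for it, at -0.59 ± 0.09. These 4 were chosen after their values were seen. Cyp7a1, the rate-limiting enzyme gene of bile acid synthesis and itself a clock output, was higher in PWKxNOD at 1.65 ± 0.28 (edgeR adjusted p = 3.17e-05). Of 12 bile acid synthesis genes 2 were higher and 1 lower. Of 16 tested genes of cellular sterol handling 2 were higher and 1 lower, and of 14 tested bile transporters 1 was higher and 1 lower. With the clock score as a covariate 62 genes in place of 1281 were called by cross, and 0 of the 26 cholesterol genes (0 at an unadjusted p of 0.05 in edgeR, median -0.02) and 0 of the 12 bile acid genes (2 unadjusted) were among them. Without the mice labelled 25 the cholesterol genes called lower numbered 4, and without the mice with pancreas transcripts 7, with 0 higher in both and medians of -0.32 and -0.45.

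LXR targets showed no common direction. Of 13 tested, with Abcg5 and Abcg8 not in the list, 1 was higher and 3 lower in PWKxNOD (median -0.05), where 10.7% of all genes were called. The single rise was Cyp7a1, and Mylip (-0.25 ± 0.08), Lpl (-0.45 ± 0.12) and Scd1 (-0.61 ± 0.20) fell. Abca1, the other main cholesterol exporter gene among LXR targets, was at 0.14 ± 0.05 (adjusted p = 0.0684). Of 15 genes for regulators linked to the promoter of the pair, 2 rose and 1 fell by cross: Nr1h4, the bile acid receptor gene, at 0.30 ± 0.05, Nr2f2 at 0.21 ± 0.05, and Gata4 at -0.29 ± 0.09. The gene for LXR alpha, Nr1h3, was at 0.05 ± 0.05 (adjusted p = 0.635), and Hnf4a at -0.06 ± 0.05 (adjusted p = 0.551). With the clock score as a covariate 0 of the LXR targets and 0 of the regulators were called by cross in edgeR (2 and 0 at an unadjusted p of 0.05). Without the mice with pancreas transcripts 1 LXR target was higher and 1 lower, and 2 regulators were higher and 0 lower. Without the mice labelled 25 these were 1 and 1, and 3 and 2.

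With age, when neither Abcg5 nor Abcg8 passed, some other transporter and sterol genes did, in a comparison where 12% of all genes were called. Abcg2, a related ABCG gene whose protein forms pairs with itself, was higher in older mice at 0.41 ± 0.06 (edgeR adjusted p = 2.41e-07). It was 1 of 3 tested genes of the other ABCG members. Of 14 tested bile transporters 3 rose and 1 fell: Abcg2, Abcc3 (0.28 ± 0.07), an exporter toward blood, and Slco1a4 (0.57 ± 0.17) rose, and Slc10a1 (-0.29 ± 0.05), the bile salt uptake carrier, fell. Among 12 bile acid synthesis genes 3 rose, Amacr (0.33 ± 0.06), Hsd3b7 (0.26 ± 0.05) and Hsd17b4 (0.15 ± 0.04). Among 16 genes of cellular sterol handling 4 rose and 3 fell, with Osbp at -0.23 ± 0.04, Lipa, the lysosomal acid lipase gene, at 0.22 ± 0.05, Lcat at 0.18 ± 0.05 and Npc1 at -0.17 ± 0.04. Of the 26 cholesterol genes 2 fell and 0 rose, among them Stard4, which encodes a sterol carrier (-0.41 ± 0.08). Of the LXR targets Scd1 fell (-1.03 ± 0.20), and of the regulators Thrb, a thyroid hormone receptor gene, fell (-0.20 ± 0.05). Median age values of these lists lay between -0.27 for cholesterol genes and 0.23 for the other ABCG genes, against -0.00 over all genes. Without the mice labelled 25 the median of the other ABCG genes was -0.08.

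Markers of some cell types moved with age as well, and their part in these values was not tested. Both tested bile duct markers of the 8 in the list rose, Sox9 at 0.83 ± 0.14 and Spp1 at 0.72 ± 0.08 (edgeR adjusted p = 2.92e-05 and 6.67e-10). Of the 12 hepatocyte markers 3 fell, Cps1 (-0.42 ± 0.07), Ass1 (-0.42 ± 0.08) and Pck1 (-0.54 ± 0.18), and Alb rose (0.18 ± 0.05). Of 5 tested endothelial markers 1 rose and 2 fell. The red cell (5 tested), lymphocyte (2 tested) and intestinal (2 tested) lists each had 1 marker that rose. None of 5 tested Kupffer cell, 6 stellate cell or 8 pancreas markers was called. With the clock score as a covariate 740 genes in place of 1439 were called for age. Of the 16 sterol handling genes 1 then rose and 1 fell, the counts were the same without the mice with pancreas transcripts, and 0 rose and 2 fell without the mice labelled 25. The bile transporters called were 3 higher and 1 lower with the clock score, 2 and 1 without the mice with pancreas transcripts, and 1 and 1 without the mice labelled 25. For cholesterol genes 5 in place of 2 were lower with the clock score. Of the regulators 0 were called in edgeR with the clock score or without the mice labelled 25 (3 at an unadjusted p of 0.05 in each).

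With diet in older mice, 5 genes of these lists passed while the pair did not. Abca1 was higher with high vitamin D at 0.33 ± 0.07 (edgeR adjusted p = 0.00536) and Scd1 lower at -1.36 ± 0.29 (adjusted p = 0.00431), so the 2 called of 13 LXR targets moved in opposite directions. Cyp7b1, the oxysterol hydroxylase gene of the alternative bile acid pathway, was higher at 0.55 ± 0.13. Abcc3 was lower at -0.47 ± 0.10 and Cyp46a1, a cholesterol hydroxylase gene, lower at -0.62 ± 0.18. None of the 26 cholesterol genes or the 15 regulators was called in edgeR, with 3 and 2 of them at an unadjusted p of at most 0.05. The share of genes called in this comparison was 3.71%, and 445 genes were called. This number was 5 without the 7 mice labelled 25, 53 with the clock score as a covariate and 0 without the mice with pancreas transcripts (1290 at an unadjusted p of 0.05 in edgeR). None of the genes of the sterol, transporter and regulator lists was called under these 3 alternatives in edgeR, where 0 to 5 of a list had an unadjusted p of at most 0.05. The bile duct marker Spp1 was also called in older mice, higher with high vitamin D at 0.53 ± 0.10 (adjusted p = 0.00186), and its part was not tested.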

How the data were processed

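Liver RNA of 48 mice was sequenced from unstranded, polyA-selected libraries in 96 runs, 2 per mouse, per the labels' protocols. The authors deposited 2 tables of expected counts per gene, 1 for reads assigned to the NOD allele and 1 for the PWK allele, with EMASE named in the labels. CASAVA 1.7.0, Bowtie 1.1.2 and the build GRCm38 (mm10) come from the submitters' processing notes. The EMASE version and the annotation counted on were not stated in these sources. Of 38924 genes 37607 matched GENCODE M21 by identifier, and the other 1317 held 0.159% of counts.

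Both tables were added per gene and mouse, rounded and fitted with edgeR 4.0.16 (TMM, filterByExpr, quasi-likelihood test, 8 group means, 11979 genes; biological coefficient of variation 16.6%). Allele counts were fitted as 2 columns per mouse with the same library size (9362 genes on autosomes, each averaging 20 counts or more). The p-values of both fits were adjusted with Benjamini-Hochberg over all genes tested, and calls had an adjusted p of at most 0.05. CPM are scaled by TMM, and log2 values have a pseudocount of 0.5. Other p-values come from two-sided permutation tests with 100000 resamples (exact for 6 against 6 mice). Both fits were tested on simulated data.

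Alternatives comprised DESeq2 1.42.0, scaling with RLE, a looser and a stricter filter on low counts, unrounded counts, limma 3.58.1 on log2 ratios, own totals for each allele column, the lane set as a replicate block, mice left out, and a clock or red cell score as a covariate. Named were the members, the 5 genes most alike each of them at 2 CPM or more, up to 4 called genes per list by p for age and for diet in older mice, and coding genes within 300 kb. The members and the lists were chosen with earlier results of these data known. Counts over the lists under 3 alternatives were added after the data were seen. The values of a single listed gene are not reported here.

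Mice of the same lane set did not deviate together: over 168 pairs the mean correlation of their deviations from group means was -0.005, against 0.001 between lane sets. No libraries of a group agreed within sampling noise (the lowest chi-square per gene of 120 pairs was 4.59). Each mouse is a separate animal. Counts are 2025857 to 7480778 per mouse, and a share at 158 to 1210 counts has at least the uncertainty of the intervals given with it.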

Additional observations from a re-analysis of the deposited data

Results flagged for a closer look

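In each group of 6 mice the gap between the most extreme mouse and its nearest neighbour was set against the range of the group for 5 quantities (level and PWK share of each gene, and the ratio of their levels), and 2 of the 40 groups stood out, where chance flags about 1 in 20. In younger PWKxNOD mice on the normal diet, the mouse of lane set 4 had a PWK share of Abcg5 of 30.82%, and the next was at 23.39%. It had 175 Abcg5 counts and a Wilson interval of 24.5% to 38.1%. In older PWKxNOD mice on the normal diet, the mouse of lane set 1 had a ratio of Abcg5 to Abcg8 CPM of 0.9398, above the next at 0.7911.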

How the results depend on the processing

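Of 485 values of the genes and their relation under alternatives, 449 kept their direction and their side of the threshold. With the clock score as a covariate, the cross difference was 0.068 (Abcg5) and 0.091 (Abcg8), neither called, age in Abcg5 was 0.278 and called, and signs turned for Abcg5 by age by diet (-0.080), diet by cross (-0.047) and diet in older mice (-0.040). Without the mice labelled 25, signs turned for Abcg5 in age by cross (0.077), diet by cross (-0.104), age on the normal diet (-0.077) and allele by age (0.035), and for Abcg8 in age by diet (0.090), allele by diet (-0.009) and allele by age by diet (-0.134). Without the mice with pancreas transcripts, an alternative chosen after seeing the data, they turned for age by diet (-0.061 and 0.010) and age by cross in Abcg5 (0.031). Own totals per allele column gave 0.045 for allele by age by diet in Abcg5. None of the values whose sign turned had been called, and the cause was not tested.

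Leaving out each lane set in turn gave 0.095 to 0.215 for Abcg5 by age (called without lane set 1), 0.188 to 0.258 for Abcg8 by cross (not called without lane set 4) and 0.298 to 0.391 for Abcg5 by cross. Ranges that included both signs were -0.126 to 0.095 (Abcg5) and -0.145 to 0.097 (Abcg8) for age by diet, -0.155 to 0.018 for Abcg5 age by cross, -0.107 to 0.127 for Abcg5 diet by cross, -0.103 to 0.002 for Abcg5 allele by age, and -0.096 to 0.043 (Abcg5) and -0.074 to 0.147 (Abcg8) for allele by age by diet. The relation of the genes ranged from r = 0.775 to 0.841.

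The replicate block by lane set gave 0.338 for Abcg5 and 0.223 for Abcg8 by cross and r = 0.810, and changed no call of the genes. Of 168 pairs of mice in a lane set 39 correlated above 0.1, and 7 mice correlated best with their own lane set.

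Counts of genes called moved by over 1.5 times in places. For cross 1281 became 847 without mice labelled 25 and 62 with the clock score. For age 1439 became 777 and 740, and 874 without mice with pancreas transcripts. For diet 41 became 124 in DESeq2, 24 without a low-count filter, 15 without the shallowest barcode, 6 to 40 without 1 lane set, and 0 without mice labelled 25, with the clock score or without mice with pancreas transcripts (1054, 851 and 961 genes at an unadjusted p of 0.05 in edgeR). For age by diet 74 became 167 in DESeq2, 23 without a filter, 38 without the shallowest barcode, 11 with the clock score, 1 without pancreas transcripts, 4 to 90 without 1 lane set and 0 without mice labelled 25 (1086 unadjusted). For diet in older mice 445 became 290 without a filter, 53 with the clock score, 5 without mice labelled 25, 176 to 438 without 1 lane set, and 0 without pancreas transcripts (1290 unadjusted; edgeR). Among allele comparisons, parent of origin went from 25 to 48 with own totals and 16 to 23 without 1 lane set, allele by age from 66 to 39 to 51, and allele by diet from 2 to 16 without mice labelled 25.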
